A study of Mus musculus with 9 samples.

Results

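Collagen genes other than Col1a2 were examined in RNA-seq of bone marrow (BM) as the 43 names in the count table that consist of Col, a chain number, the letter a and a number, out of 53172 gene names. Mice of 3 groups were compared, with 3 mice in each, and each mouse gave 1 library. BMT mice were wild-type recipients 16 weeks old that received 9.5 Gy of whole-body irradiation and then 500000 BM cells. CDSCs mice were irradiated in the same way and received 500000 dissociated cartilage cells (CDSCs), which the study digested from the costal cartilage of neonatal mice and names isoCDSCs in its group isoCDSCs-T, and Health mice were age-matched and were neither irradiated nor transplanted. BM was taken 2 weeks after transplantation. All mice were of the C57BL/6J background, and donor cells carried CD45.1 or the reporter ZsGreen where the study traced them. The labels describe a library of all marrow cells for each mouse. In the study's methods CD45+ and CD45- cells were parted on beads, sequenced apart in equal amounts, scaled to equal depth and then combined.

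Collagens are proteins of 3 chains wound into a triple helix, and they form the largest part of the extracellular matrix of bone, cartilage and vessel walls. Fibrillar collagens assemble into the fibres that bear load, basement membrane collagens (type IV) form sheets below endothelial and other cells, and FACIT collagens sit on the surface of fibrils. The remaining classes include the beaded filaments of type VI, the multiplexins of type XV and XVIII, and collagens that span the cell membrane. In marrow, osteoblasts and stromal cells make most collagen, and blood-forming cells make little of it. A count is the number of sequenced fragments assigned to a gene name. In a mixture of cells, fewer cells that make a transcript and less of that transcript per cell cannot be told apart. Differences were tested on the counts by the quasi-likelihood method of edgeR over the 12572 genes that passed the filter on low counts, with Benjamini-Hochberg adjustment over all of them, and a gene is said to have changed where its adjusted p was under 0.05. CPM is a count scaled to the library, and TPM is also scaled to gene length.

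Of the 43 collagen names, 13 had under 10 counts in every mouse. These were the fibrillar genes Col11a1 and Col5a3, the basement membrane genes Col4a1 and Col4a3, the FACIT genes Col9a1, Col9a2 and Col22a1, and Col6a3, Col6a4, Col6a5, Col10a1, Col18a1 and Col23a1 of the other classes. Col4a1, Col11a1 and Col23a1 had 0 counts in all 9 mice, where library totals were 8741155 to 10181289 counts, and a floor of 3 counts corresponds to at most 0.358 CPM, which covers counting error only. A further 2 names, Col1a1 and Col25a1, reached 10 counts in at least 1 mouse but did not pass the filter. The other 28 names were tested, and 21 names had at least 10 counts in every mouse. Counts were concentrated in few names. Col11a2, Col9a3, Col17a1 and Col13a1 together held 79.5% of all counts under the 43 names, and Col11a2 alone held 47.9%. Per gene length the order was the same, with mean TPM over the 9 mice of 589 for Col11a2, 377 for Col9a3, 128 for Col17a1 and 112 for Col13a1.

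These levels have to be read with the names under which other genes were listed. Several genes that marrow is known for had no counts, among them Hbb-bs (a beta globin), S100a8 and Camp (neutrophil proteins), Dcn and Lum (stromal proteoglycans) and Sp7 (the osteoblast factor osterix), each at 0 in all 9 mice. Housekeeping genes were taken by name pattern (ribosomal, proteasomal, respiratory chain, translation, splicing and sorting proteins), which also takes in tissue-restricted relatives, pseudogene names and kinases. Of 343 such names, 97 had a mean of at least 100 counts (28.3%) and 190 had a mean under 10. Without 53 names of those kinds, a choice made after the values were seen, it was 90 of 290 (31.0%), with 151 under 10, and 18 of 76 ribosomal protein names reached 100. Over the 343 names the share differed along the genome. On chromosome 6 it was 70.0%, on chromosome 4 it was 60.0%, and on chromosome X it was 0 of 12 genes (75.0%, 57.1% and 0 of 10 in the shorter list). For each collagen gene the 10 nearest housekeeping genes on its chromosome were therefore counted (positions from GENCODE M21, build GRCm38). Of 43 collagen genes, 22 had at most 2 such genes with a mean of at least 100 counts, 14 had 5 or more, and Col28a1 had the most, 7 of 10. These genes were often far away. The nearest lay 3.96 kb to 22.9 Mb from the collagen gene (median 1.60 Mb), and the farthest of the 10 lay 6.42 to 119 Mb away (median 43.4 Mb). The number is therefore close to a share over the chromosome, and for Col28a1 the 10 are all the housekeeping genes found on chromosome 6. Whether the reads under a collagen name came from that gene was not tested, and the values below are those listed under each name.

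**Figure D1:**
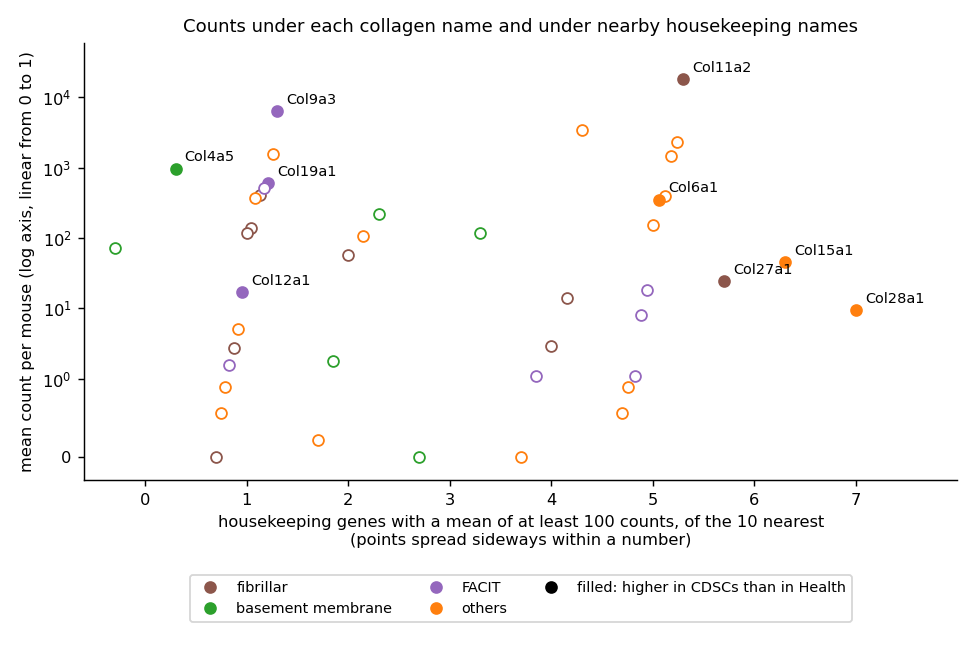
Each point is 1 of the 43 collagen genes, coloured by class, with its mean count per mouse (vertical axis, log scale, linear from 0 to 1) against the number of its 10 nearest housekeeping genes with a mean of at least 100 counts (horizontal axis). Filled points are the 9 genes that passed as higher in CDSCs than in Health. Of these, Col12a1 and Col28a1 entered the test only through CDSCs, and no rise is read from them. Among the filled points Col28a1 (7 of 10), Col15a1 and Col27a1 (6 of 10 each) lie furthest to the right, and Col4a5 has 0 of 10. The 10 genes can lie up to 119 Mb away.

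A further view of the names came from type IV collagen, whose genes lie head to head in pairs and are known to be transcribed from shared promoters. The starts of Col4a1 and Col4a2 are 21 bases apart on chromosome 8 (GENCODE M21), and their chains combine in the same molecule. Col4a1 had 0 counts in every mouse while Col4a2 had 86 to 148 (mean TPM 4.10). The starts of Col4a3 and Col4a4 are 72 bases apart on chromosome 1, with 0 to 3 counts for Col4a3 and 170 to 272 for Col4a4 (mean TPM 0.0402 and 4.73). Col4a5 and Col4a6 on chromosome X start 1309 bases apart and had 609 to 1504 and 49 to 135 counts (mean TPM 32.6 and 2.02). In all 3 pairs the partners did not overlap in any mouse. The starts of Col4a5 and Col4a6 lie furthest apart. Whether unequal counts came from the names or from expression was not tested in any pair.

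Col1a1, the major chain of the type I collagen of bone, had 0, 0 and 0 counts in Health, 0, 1 and 21 in BMT and 0, 2 and 1 in CDSCs. It was under the floor of 3 counts in 8 of 9 mice, and no fold change is given. Its partner chain in the same molecule, Col1a2, was listed with 1657, 24991 and 1285 counts in Health, 4543, 5969 and 17069 in BMT and 140263, 35164 and 8889 in CDSCs. Type I collagen contains both chains, but Col1a1 had at most 21 counts where Col1a2 had at least 1285. The pattern of Col1a2 over the 9 mice, highest in CDSCs mouse 1 and with Health mouse 2 far above the other Health mice, was compared with that of every other gene with a mean of at least 20 counts, a comparison chosen after the values were seen. Of these 10118 genes, 26 had a Pearson r of at least 0.9 with Col1a2 on log2 CPM over the 9 mice (0.257%), and the median r was -0.02. The closest gene was Itga3, which encodes an integrin alpha chain and lies 91.4 kb from Col1a1 on chromosome 11 (r = 0.998). Itga3 was listed with 1162, 18783 and 982 counts in Health, 3033, 4438 and 11412 in BMT and 103389, 26219 and 5239 in CDSCs. Its CPM was 0.589 to 0.764 of that of Col1a2 in every mouse, while the counts of Col1a2 ran from 1285 to 140263. The next gene was G3bp1, a stress granule protein gene (r = 0.998), which lies 46.5 kb from Sparc, a collagen-binding matrix protein of bone that was itself listed with 0 to 1 counts.

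Type III collagen followed. Col3a1 encodes the fibrillar chain of vessel walls, reticular marrow fibres and loose connective tissue, and was the third closest gene (r = 0.995). Col5a2, a chain of the fibril-nucleating type V collagen that lies 24.6 kb from Col3a1 on chromosome 1, was the fifth (r = 0.985). Pcolce, which encodes an enhancer of the proteinase that trims fibrillar procollagens, was the sixth (r = 0.968). These r values describe 9 mice that share the group difference, and they carry no test. The other 21 collagen genes compared reached at most r = 0.858, for Col11a2.

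**Figure D2:**
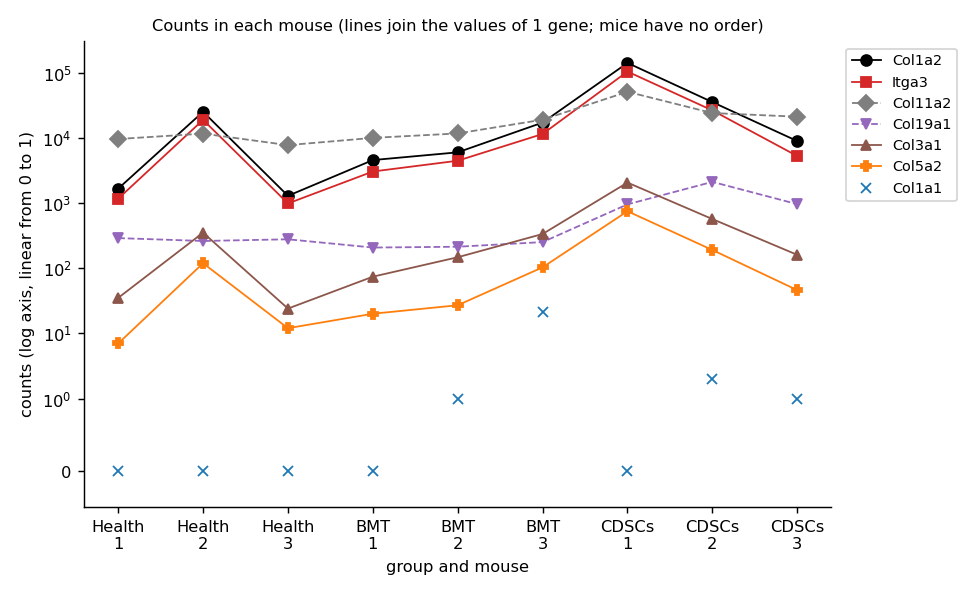
Counts in each of the 9 mice (vertical axis, log scale, linear from 0 to 1) for Col1a2, Itga3, Col3a1 and Col5a2 (solid lines), for Col11a2 and Col19a1 (dashed lines) and for Col1a1 (crosses). The solid lines run parallel, with a peak of 140263 counts for Col1a2 and 103389 for Itga3 in CDSCs mouse 1, while Col19a1 peaks in CDSCs mouse 2 and Col1a1 stays at 21 counts or fewer.

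Against Health, 9 of the 28 collagen genes tested were higher in CDSCs and 0 were lower (edgeR's quasi-likelihood test, adjusted p under 0.05). Over all 12572 genes, 8.69% were higher and 8.28% were lower in CDSCs in that comparison, and 9 of 28 is 32.1%. The median log2 fold change was 0.58 over the 28 collagen genes and -0.02 over all genes, and 23 of the 28 lay above 0, compared with 48.6% of all genes. Every CDSCs mouse lay above every Health mouse for 14 of the 28 genes, compared with 16.7% of all genes tested. By class the genes that passed were 2 of 7 fibrillar, 1 of 4 basement membrane, 3 of 6 FACIT and 3 of 11 other collagens. The collagen genes that passed the filter are those with enough counts in at least 1 group, so these counts describe the genes tested and not the 43 names, and they are not read as support for a rise of the family. Of the 9, Col12a1 and Col28a1 passed the filter only through the CDSCs mice, the group where they are high, so no rise is read from their tests and 7 calls remain. Col27a1 passed it through BMT and CDSCs. With at least 10 counts required in every mouse, 7 of 21 collagen genes were higher and included 6 of the 9, where 10.9% of all genes were higher. Without CDSCs mouse 1, the mouse with the most Col1a2 counts, 10 collagen genes were higher and included all 9, where 10.7% of all genes were higher. Without Health mouse 2, 7 were higher and included 5 of the 9, where 4.09% of all genes were higher.

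BMT against Health showed 0 of 28 collagen genes that passed the threshold, where 0.994% of all genes were higher and 1.45% were lower in BMT. At an unadjusted p under 0.05 there were 3 collagen genes, which was 10.7% of those tested compared with 16.8% of all genes, and DESeq2 gave 1 gene, Col27a1. The median log2 fold change of the collagen genes was 0.06 and 17 of 28 lay above 0. Both comparisons use the same 3 Health mice, so their values are given side by side and not as independent evidence. CDSCs against BMT, tested on its own, gave 2 higher genes, Col19a1 and Col12a1 (the latter tested only because of its CDSCs counts), and 0 lower genes, where 0.326% of all genes were higher and 0.7% were lower in CDSCs. Without BMT mouse 1 neither gene passed in that comparison, and without CDSCs mouse 3 there were 5 collagen genes that were higher, where 1.73% of all genes were. In that comparison the median over the collagen genes was 0.35, with 21 of 28 above 0. The mean CPM was highest in CDSCs for 20 of the 28 genes, in BMT for 4 and in Health for 4.

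**Figure D3:**
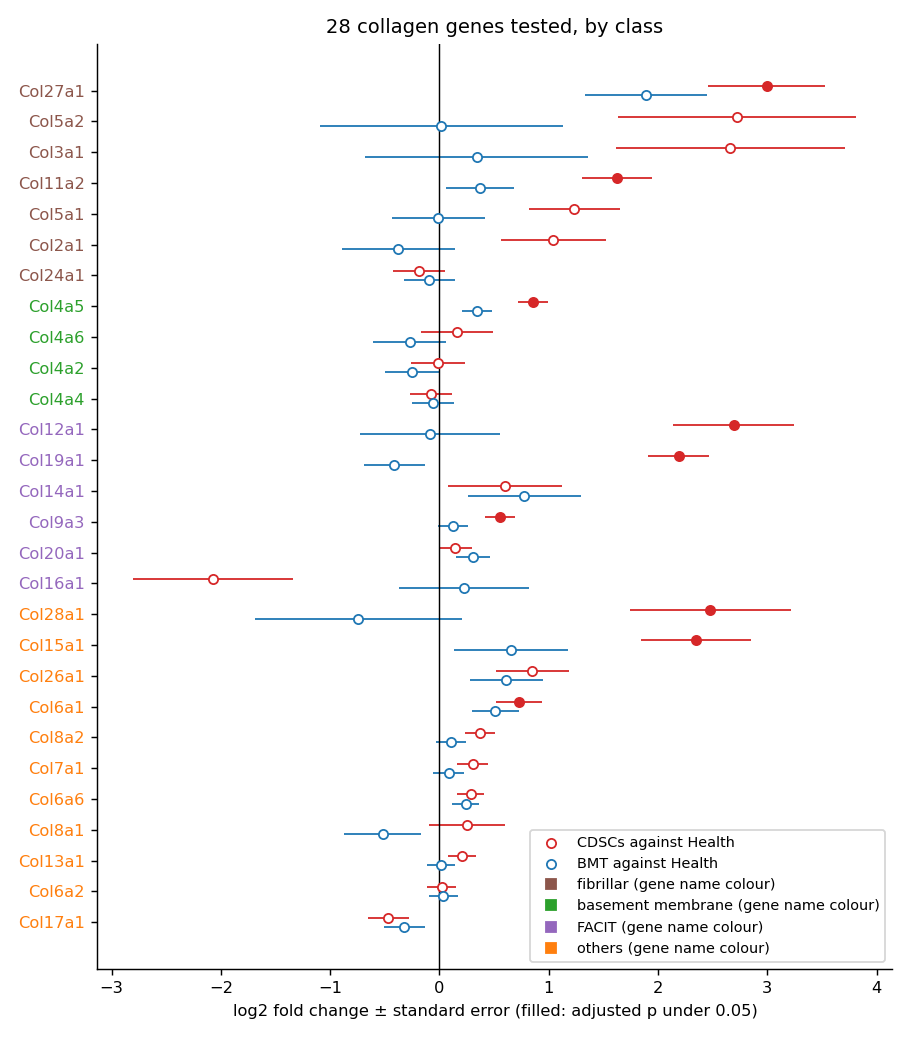
Log2 fold change against Health (horizontal axis, bars are standard errors) of the 28 collagen genes tested, for CDSCs in red and BMT in blue, with gene names coloured by class. Filled points passed an adjusted p of 0.05, which were 9 genes in CDSCs and 0 in BMT. Of the 9, Col12a1 and Col28a1 entered the test only through CDSCs, and no rise is read from them.

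Of the 9 genes that passed, the fibrillar gene Col27a1, the multiplexin gene Col15a1 and Col28a1 lie on chromosomes 4 and 6, which had the highest shares of housekeeping genes with counts among chromosomes with 10 or more such genes. The names close by were mixed. Of the other protein-coding genes within 1 Mb, 15 of 18 around Col15a1 and 7 of 11 around Col28a1 had a mean of at least 100 counts, but 9 of 30 around Col27a1 did, where 18 had a mean under 10. The 5 genes nearest to Col27a1, all within 41.9 kb, were Orm1, Orm3, Orm2, Akna and Kif12, and 0 of them reached a mean of 100. Among the 5 nearest to Col15a1, 4 did, and among the 5 nearest to Col28a1, 4 did. Examples are Tgfbr1, a TGF-beta receptor 40.1 kb from Col15a1 (989 to 1689 counts), and Mios, 16.6 kb from Col28a1 (690 to 1297 counts). The 250 bases before the RefSeq start of these genes (GRCm38.p6) are shown with that of Col3a1, the collagen closest in pattern to Col1a2, because these are the regulatory stretches next to the genes discussed. Capitals mark matches on either strand to the TATA box letters TATAAA, to the letters CCAAT that bind the factor NF-Y and to the GC box letters GGGCGG. The windows are chr1:45311288-45311537 (plus strand) for Col3a1, chr4:47207762-47208011 (plus strand) for Col15a1, chr4:63215162-63215411 (plus strand) for Col27a1 and chr6:8192618-8192867 (minus strand) for Col28a1, and the window of Col27a1 lies within the longer gene that GENCODE M21 draws from 63214004 to 63334991.
Col3a1: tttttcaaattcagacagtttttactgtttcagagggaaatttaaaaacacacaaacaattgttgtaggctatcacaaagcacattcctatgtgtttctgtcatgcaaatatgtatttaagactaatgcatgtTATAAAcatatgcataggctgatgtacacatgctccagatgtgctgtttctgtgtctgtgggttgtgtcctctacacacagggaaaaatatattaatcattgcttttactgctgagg
Col15a1: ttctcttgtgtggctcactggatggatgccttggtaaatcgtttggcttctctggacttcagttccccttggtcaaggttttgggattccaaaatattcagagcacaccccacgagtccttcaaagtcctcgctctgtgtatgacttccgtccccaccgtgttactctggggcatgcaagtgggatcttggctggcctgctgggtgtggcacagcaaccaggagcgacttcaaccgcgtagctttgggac
Col27a1: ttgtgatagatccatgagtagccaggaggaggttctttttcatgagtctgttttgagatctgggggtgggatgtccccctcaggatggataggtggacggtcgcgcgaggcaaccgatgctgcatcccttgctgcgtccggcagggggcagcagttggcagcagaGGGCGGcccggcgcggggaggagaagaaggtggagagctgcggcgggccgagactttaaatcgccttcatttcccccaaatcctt
Col28a1: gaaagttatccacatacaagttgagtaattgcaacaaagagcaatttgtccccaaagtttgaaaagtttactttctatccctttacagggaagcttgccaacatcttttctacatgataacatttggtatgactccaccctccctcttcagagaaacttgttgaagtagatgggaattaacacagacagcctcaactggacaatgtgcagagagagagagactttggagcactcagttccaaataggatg
The window of Col3a1 holds 1 TATAAA and that of Col27a1 holds 1 GGGCGG, while those of Col15a1 and Col28a1 hold none of these letters. TATAAA was found in 12.4% of 32851 RefSeq promoter windows of this length and in 5 of the 37 windows of the 34 collagen genes that matched, CCAAT in 33.8% and in 12 of 37, and GGGCGG in 32.7% and in 21 of 37. A match describes letters and not a bound factor.

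Col27a1 encodes a fibrillar chain of growing cartilage. It had 5, 8 and 3 counts in Health, 11, 30 and 24 in BMT and 66, 24 and 47 in CDSCs. All 6 transplanted mice lay above all Health mice, and the CDSCs and BMT mice overlapped. Its level rose 7.97-fold from 0.585 ± 0.262 CPM in Health to 4.75 ± 2.08 CPM in CDSCs (SD, n = 3 each), with a log2 fold change of 2.99 (standard error 0.54, edgeR adjusted p = 0.00592). In BMT it had 2.20 ± 0.959 CPM, and the log2 fold change against Health was 1.89 (standard error 0.56, edgeR adjusted p = 0.118), which did not pass. 

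Col15a1 is a multiplexin of basement membrane zones around vessels. It had 16, 12 and 22 counts in Health, 23, 28 and 34 in BMT and 178, 59 and 40 in CDSCs. The 3 groups did not overlap, and CDSCs mouse 1 stood far above the other 8 mice. From Health to CDSCs it rose from 1.83 ± 0.536 to 9.33 ± 7.05 CPM (SD, n = 3 each), with a log2 fold change of 2.35 (standard error 0.50, edgeR adjusted p = 0.0125). Without CDSCs mouse 1 the log2 fold change was 1.53 (edgeR adjusted p = 0.0111), and without Health mouse 2 the edgeR adjusted p was 0.0549. BMT and Health differed by a log2 fold change of 0.65 (standard error 0.52, edgeR adjusted p = 0.571).

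Col28a1 encodes a collagen with von Willebrand factor A domains. It had 4, 4 and 3 counts in Health, 1, 0 and 6 in BMT and 16, 39 and 12 in CDSCs. All CDSCs mice lay above all other mice, at counts where a few reads decide the value. Its level was 0.405 ± 0.0813 CPM in Health and 2.30 ± 1.45 CPM in CDSCs (SD, n = 3 each), a log2 fold change of 2.48 (standard error 0.74, edgeR adjusted p = 0.0444). Only the CDSCs mice brought it past the filter on low counts, so this is a description and no rise is read from it. It passed in only 2 of the 6 fits that left out 1 mouse, losing the threshold without CDSCs mouse 2, where the log2 fold change was 1.83, and without any of the 3 Health mice, with an edgeR adjusted p up to 0.175.

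Col11a2, a fibrillar chain of cartilage collagen XI, carried the highest counts of any collagen name other than Col1a2. It had 9557, 11550 and 7701 counts in Health, 9947, 11632 and 18886 in BMT and 50627, 23884 and 21013 in CDSCs. Every CDSCs mouse lay above every other mouse, and BMT and Health overlapped. It rose 3.09-fold from Health to CDSCs, with a log2 fold change of 1.63 (standard error 0.32, edgeR adjusted p = 0.00848), and the log2 fold change of 0.37 in BMT (standard error 0.31, edgeR adjusted p = 0.596) did not pass. The call held in all 6 fits that left out 1 mouse. Col11a2 lies on chromosome 17, where 5 of its 10 nearest housekeeping genes, all within 6.42 Mb, had a mean of at least 100 counts. Rps18, 83.4 kb away, encodes a ribosomal protein and had 0 to 9 counts, while Cd320, 190 kb away, was listed with 142 to 1733 counts and had an r of 0.964 with Col1a2. The cartilage chains Col11a1 and Col2a1, which combine with Col11a2 in collagen XI, had 0 counts and 6 to 34 counts.

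Of the remaining fibrillar genes, Col3a1 had 35, 350 and 24 counts in Health, 74, 147 and 334 in BMT and 2052, 566 and 160 in CDSCs. Health mouse 2 lay above 1 CDSCs mouse and above all BMT mice, so all groups overlapped. Its mean CPM was 92.2 ± 96.1 in CDSCs and 14.5 ± 19.3 in Health (SD, n = 3 each), a log2 fold change of 2.66 with a standard error of 1.05 that did not pass (edgeR adjusted p = 0.106). Without Health mouse 2 the log2 fold change was 4.78 (edgeR adjusted p = 0.0313) and without CDSCs mouse 1 it was 1.38 (edgeR adjusted p = 0.324), and over all alternatives the adjusted p ran from 7.22e-34 to 0.324. Col5a2 gave 2.73 (standard error 1.09, edgeR adjusted p = 0.112). It passed without Health mouse 2 (log2 fold change 4.92, edgeR adjusted p = 0.0424), without CDSCs mouse 3 (3.22, edgeR adjusted p = 0.0457) and without the filter, and was 1.33 without CDSCs mouse 1 (edgeR adjusted p = 0.369). CDSCs mouse 1 was again the highest mouse and Health mouse 2 the highest of the Health mice. Col2a1, the main collagen of cartilage, had 6, 7 and 19 counts in Health, 11, 8 and 7 in BMT and 34, 20 and 16 in CDSCs. All CDSCs mice lay above all BMT mice, but the log2 fold changes of Col2a1 in CDSCs against Health (1.04, standard error 0.48, edgeR adjusted p = 0.161) and against BMT (1.42, standard error 0.49, edgeR adjusted p = 0.166) did not pass. Without Health mouse 3 the value against Health was 1.70 (edgeR adjusted p = 0.0526).

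Among basement membrane collagens, Col4a5 rose and the other 3 genes tested did not pass. Col4a5 had 609, 721 and 714 counts in Health, 965, 777 and 1029 in BMT and 1285, 1504 and 1120 in CDSCs. The groups were ordered Health, BMT, CDSCs without overlap. Its CPM was 74.6 ± 1.70, 94.5 ± 12.6 and 135 ± 15.1 (SD, n = 3 each) in that order, with a log2 fold change in CDSCs against Health of 0.86 (standard error 0.14, edgeR adjusted p = 0.00359) and in BMT against Health of 0.34 (standard error 0.14, edgeR adjusted p = 0.241). It held in all 6 fits that left out 1 mouse, but 0 of the 12 housekeeping genes on chromosome X had a mean of at least 100 counts. Col4a4 had 209 to 236 counts in Health, 214 to 234 in BMT and 170 to 272 in CDSCs, with a log2 fold change of -0.08 (standard error 0.19) in CDSCs against Health. Col4a2 had 105 to 137, 86 to 132 and 101 to 148 counts in the same order, with a log2 fold change of -0.01 (standard error 0.25). Both Col4a4 and Col4a2 overlapped in all groups.

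Of the FACIT collagens, Col19a1 and Col9a3 rose, and Col12a1, which entered the test only through CDSCs, also passed, of 6 genes tested. Col19a1, a collagen of muscle and neuronal matrices, had 289, 261 and 277 counts in Health, 207, 213 and 251 in BMT and 951, 2103 and 958 in CDSCs. Every CDSCs mouse lay far above every other mouse, and every BMT mouse lay below every Health mouse. Its log2 fold change in CDSCs was 2.19 against Health (standard error 0.28, edgeR adjusted p = 0.00114) and 2.60 against BMT (standard error 0.29, edgeR adjusted p = 0.00965), and in BMT against Health it was -0.41 (standard error 0.28, edgeR adjusted p = 0.491). Against Health the call held in all 6 fits that left out 1 mouse, and against BMT it was lost without BMT mouse 1 (edgeR adjusted p = 0.0679). Its nearest housekeeping gene, Rpl7, lies 8157 kb away and had 0 counts in every mouse.

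Col12a1, which decorates type I fibrils in tendon, bone lining and periosteum, had 3, 11 and 3 counts in Health, 4, 9 and 4 in BMT and 53, 45 and 21 in CDSCs. All CDSCs mice lay above all other mice, and BMT and Health overlapped. Only the CDSCs mice brought Col12a1 past the filter on low counts, so its values describe these mice and no rise is read from its tests. The log2 fold change in CDSCs was 2.69 against Health (standard error 0.55, edgeR adjusted p = 0.0105) and 2.78 against BMT (standard error 0.55, edgeR adjusted p = 0.0494). Against Health it passed in all 6 fits that left out 1 mouse, with a log2 fold change of 3.54 without Health mouse 2, while against BMT it passed in 1 of 6, the fit without CDSCs mouse 3, and reached an edgeR adjusted p of 0.221 without BMT mouse 1. Cox7a2, a respiratory chain gene 36.5 kb from Col12a1, had 0 counts in every mouse.

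Col9a3, a chain of the cartilage collagen IX, had 4591, 5310 and 5679 counts in Health, 5909, 6339 and 5933 in BMT and 7239, 8523 and 8103 in CDSCs. On the CPM scale all CDSCs mice lay above all others, and the spread within groups was small. The rise was 1.46-fold, from 569 ± 27.6 to 833 ± 112 CPM (SD, n = 3 each), with a log2 fold change of 0.55 (standard error 0.14, edgeR adjusted p = 0.0231). It was lost without CDSCs mouse 2 or 3 and without Health mouse 1 or 2, with an edgeR adjusted p up to 0.0916. Its partner chains Col9a1 and Col9a2 had under 10 counts in every mouse, and the nearest housekeeping gene, Rps21, 339 kb away, had 0 counts. Col16a1, chosen after its values were seen because it had the lowest log2 fold change of the 28 genes, had 8, 4 and 17 counts in Health and 3, 2 and 2 in CDSCs, with a log2 fold change of -2.07 (standard error 0.73) that did not pass (edgeR adjusted p = 0.079).

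Of the other classes, Col6a1 rose along with Col15a1. Col6a1 is a chain of the beaded filaments of type VI collagen around cells. It had 194, 258 and 294 counts in Health, 403, 394 and 331 in BMT and 333, 540 and 417 in CDSCs. All transplanted mice of both groups lay above all Health mice, with a log2 fold change in CDSCs of 0.73 (standard error 0.21, edgeR adjusted p = 0.0412) and in BMT of 0.51 (standard error 0.21, edgeR adjusted p = 0.254). The call in CDSCs held in 1 of 6 fits that left out 1 mouse, the fit without CDSCs mouse 1, and the edgeR adjusted p reached 0.145 without Health mouse 1. With only the 6 mice compared Col6a1 did not pass either. Col6a2, the chain that assembles with it, had 331 to 433 counts in Health, 353 to 475 in BMT and 356 to 457 in CDSCs, with a log2 fold change of 0.02 in CDSCs against Health (standard error 0.13). The difference between Col6a1 and Col6a2 was not tested. Col6a6, a further type VI chain, had 262, 336 and 353 counts in Health, 395, 370 and 435 in BMT and 433, 390 and 391 in CDSCs, with a log2 fold change of 0.28 in CDSCs against Health (standard error 0.13, edgeR adjusted p = 0.145) that did not pass.

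The most abundant genes of the other classes were the transmembrane collagens Col17a1, a hemidesmosome protein of epithelia, and Col13a1, which is found at cell adhesion sites. Col17a1 had 3669, 4135 and 3889 counts in Health, 3048, 3529 and 3448 in BMT and 2216, 3156 and 3425 in CDSCs. On the CPM scale every transplanted mouse lay below every Health mouse, but the log2 fold change was -0.47 in CDSCs (standard error 0.19, edgeR adjusted p = 0.113) and -0.32 in BMT (standard error 0.19, edgeR adjusted p = 0.422), and neither passed. Col13a1 had 1943 to 2353 counts in Health, 2096 to 2413 in BMT and 2351 to 2725 in CDSCs, with a log2 fold change of 0.21 in CDSCs (standard error 0.13, edgeR adjusted p = 0.292).

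**Figure D4:**
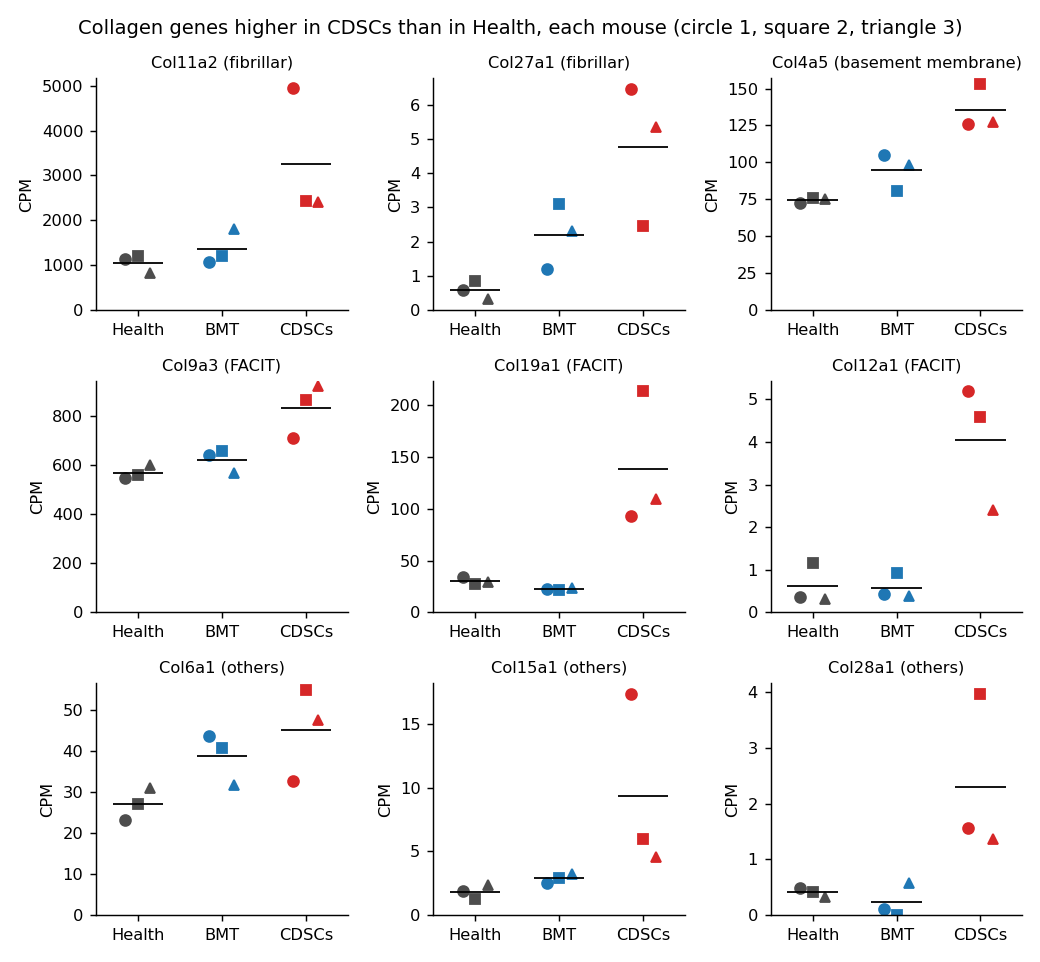
CPM (vertical axes, linear from 0) in each mouse for the 9 collagen genes that passed as higher in CDSCs than in Health. Each group has 3 mice, and horizontal bars mark the group means. Col12a1 and Col28a1 entered the test only through CDSCs, and no rise is read from them. CDSCs mouse 1 (circle) is the highest mouse for Col11a2, Col27a1, Col12a1 and Col15a1, and CDSCs mouse 2 (square) for Col19a1, Col28a1, Col4a5 and Col6a1.

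Summed CPM over each class describes the total under these names, and each sum leans on its most abundant gene. The fibrillar sum was 1095 ± 235 CPM in Health, 1407 ± 406 in BMT and 3413 ± 1602 in CDSCs (SD, n = 3 each), and Col11a2 made up 96.0% of it. Without Col11a2 it was 38.6 ± 29.3, 43.8 ± 17.5 and 154 ± 137 CPM in the same order (SD, n = 3 each), and the groups overlapped. These means lean on single mice, being 76.4 CPM in CDSCs without CDSCs mouse 1 and 21.7 CPM in Health without Health mouse 2. The basement membrane sum rested on Col4a5 (69.9%). It was 119.98 ± 3.24 CPM in Health, 135 ± 13.2 in BMT and 180.4 ± 19.5 in CDSCs, and without Col4a5 it was 45.4 ± 4.06, 41.0 ± 1.92 and 44.9 ± 4.90 CPM (SD, n = 3 each), so that CDSCs and Health differed by less than the spread between mice. The FACIT sum was 651 ± 19.4, 709 ± 50.3 and 1032 ± 155 CPM, with 84.6% in Col9a3. Without Col9a3 it was 82.4 ± 8.45 CPM in Health, 87.5 ± 3.02 in BMT and 199.5 ± 72.4 in CDSCs (SD, n = 3 each), with every CDSCs mouse above every other mouse. Most of that difference was again 1 gene, Col19a1, at 30.4 ± 3.66, 22.8 ± 1.04 and 139 ± 65.5 CPM (SD, n = 3 each). The sum of the other classes was nearly level, 1078 ± 4.24, 1036 ± 20.8 and 1118 ± 96.0 CPM, but without Col17a1 it was 650.1 ± 11.5 in Health, 694 ± 5.78 in BMT and 809 ± 17.9 in CDSCs (SD, n = 3 each), and the 3 groups did not overlap.

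**Figure D5:**
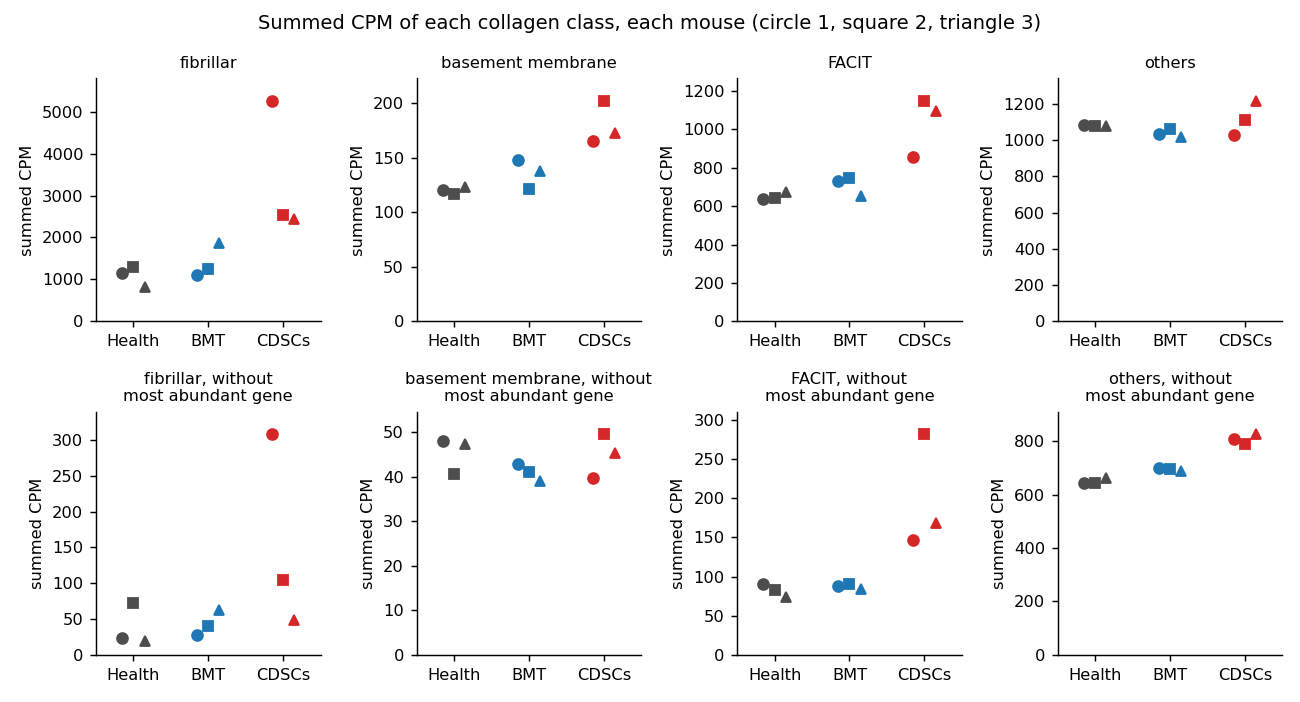
Summed CPM of each collagen class in each mouse (vertical axes from 0), with all genes in the upper row and without the most abundant gene of the class in the lower row. Without Col4a5 the basement membrane sum lies between 39.0 and 49.6 CPM in all 9 mice, while the FACIT sum without Col9a3 lies between 147 and 282 CPM in CDSCs and between 73.5 and 90.3 CPM in the other mice.

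Collagen needs enzymes that modify, fold, trim and crosslink its chains, proteinases that degrade it and receptors that bind it, and 47 genes of these kinds were followed in the same fit. Of these, 29 were tested and 16 had under 10 counts in every mouse, with the crosslinking enzymes Lox and Loxl2, the gelatinase Mmp2 and the integrin chain Itgb1 at 0. In CDSCs against Health 4 were higher (13.8%, where 8.69% of all genes were) and 3 were lower (10.3%, where 8.28% of all genes were), and the median log2 fold change of the 29 was -0.19. In BMT against Health 0 were higher and 1 was lower (3.45%), beside 0.994% and 1.45% of all genes. In CDSCs against BMT 1 was higher and 1 was lower (3.45% each), beside 0.326% and 0.7% of all genes. With so few genes these shares are not read as a result about the list. As for the collagen names, whether the reads under these names or the marker names below came from those genes was not tested. The values are those listed under each name.

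Of the processing genes, P4hb rose and Plod2 fell in CDSCs against Health, and Adamts2 passed as higher. P4hb, the beta subunit of the prolyl hydroxylase that stabilizes the triple helix, had 290, 297 and 336 counts in Health, 446, 486 and 603 in BMT and 461, 521 and 520 in CDSCs. All transplanted mice lay above all Health mice, with a log2 fold change of 0.63 in CDSCs (standard error 0.14, edgeR adjusted p = 0.0153) and 0.63 in BMT (standard error 0.14, edgeR adjusted p = 0.051). The call in CDSCs was lost without Health mouse 1 or 2, with an edgeR adjusted p up to 0.0696. Plod2, a lysyl hydroxylase of collagen telopeptides, had 105, 108 and 70 counts in Health, 83, 74 and 128 in BMT and 58, 55 and 46 in CDSCs, with a log2 fold change of -0.92 in CDSCs (standard error 0.26, edgeR adjusted p = 0.0363). This call held in 2 of 6 fits that left out 1 mouse, being lost without CDSCs mouse 2 or 3 and without Health mouse 1 or 2 (edgeR adjusted p up to 0.127), and it was also lost without TMM and with only the 6 mice compared. Adamts2, which removes the amino-terminal propeptide of fibrillar procollagens, had 0 counts in all Health mice, 5, 1 and 3 in BMT and 31, 13 and 12 in CDSCs. The mean CPM of Adamts2 in CDSCs was 5.78 times a floor of 3 counts per Health library, a bound that covers counting error only. The median of the 29 genes was unchanged with Adamts2 at that bound. Its test (edgeR adjusted p = 0.00567) does not refer to the bound. Only the CDSCs mice brought Adamts2 past the filter on low counts, so no rise is read from its test, and it is 1 of the 4 higher genes counted above.

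The collagenases moved in opposite directions. Mmp8, the neutrophil collagenase, had 22193, 27107 and 38523 counts in Health, 35765, 31974 and 17924 in BMT and 5696, 7925 and 3593 in CDSCs. All CDSCs mice lay below all other mice, with a log2 fold change of -2.43 against Health (standard error 0.34, edgeR adjusted p = 0.00191) and -2.33 against BMT (standard error 0.34, edgeR adjusted p = 0.0194). The call against BMT was lost without BMT mouse 1 or 2 (edgeR adjusted p up to 0.0865) and with only the 6 mice compared. Mmp13, the collagenase of osteoblasts and hypertrophic cartilage, had 55, 142 and 53 counts in Health, 224, 179 and 210 in BMT and 900, 479 and 778 in CDSCs. The 3 groups of Mmp13 did not overlap, and its log2 fold change in CDSCs was 3.05 against Health (standard error 0.37, edgeR adjusted p = 0.000864) and 1.84 against BMT (standard error 0.35, edgeR adjusted p = 0.0446). Against BMT it held only in the fit without CDSCs mouse 3 of the 6 that left out 1 mouse (edgeR adjusted p up to 0.177), and was lost with at least 10 counts in every mouse and with only the 6 mice compared. Against Health the calls of Mmp8 and Mmp13 held in all 6 fits that left out 1 mouse.

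Of the receptors, Itga2, the collagen-binding integrin chain of platelets and progenitors, had 112, 104 and 135 counts in Health, 33, 70 and 62 in BMT and 33, 33 and 28 in CDSCs. It fell in CDSCs (log2 fold change -1.97, standard error 0.27, edgeR adjusted p = 0.00171) and in BMT (log2 fold change -1.20, standard error 0.26, edgeR adjusted p = 0.0427), and every transplanted mouse lay below every Health mouse. The fall in BMT was lost in each of the 6 fits that left out 1 mouse, with an edgeR adjusted p up to 0.152. Mrc2, an endocytic receptor that takes up collagen fragments, had 237, 250 and 268 counts in Health, 248, 272 and 308 in BMT and 416, 412 and 371 in CDSCs, and rose in CDSCs against Health (log2 fold change 0.59, standard error 0.12, edgeR adjusted p = 0.00936).

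Markers of the cells that could carry these transcripts were listed beside them. Of 45 marker genes, 27 had under 10 counts in every mouse, including 5 of 8 bone-forming, 3 of 7 cartilage, 7 of 10 stromal niche, 3 of 6 endothelial and 7 of 10 blood cell genes. Those at 0 in all mice included Sp7 and Dmp1 of bone, Sox9 and Cnmd of cartilage, and Pdgfra, Prrx1, Adipoq, Dcn and Lum of stroma. The summed CPM of the bone-forming markers was 5.47 to 7.29 in Health, 6.72 to 8.46 in BMT and 7.12 to 11.1 in CDSCs, and that of the cartilage markers was 15.9 to 45.0, 11.9 to 13.4 and 7.05 to 20.1. Stromal niche markers summed to 53.8 to 57.7, 56.4 to 69.3 and 60.9 to 71.5 CPM, endothelial markers to 110.5 to 127.6, 122.8 to 134.3 and 115.0 to 132.5 CPM, blood cell markers to 187 to 401, 149 to 159 and 114 to 164 CPM, and skeletal muscle markers to 16.2 to 22.3, 19.2 to 22.0 and 15.95 to 22.1 CPM. Some sums lean on 1 gene, such as Eng in the endothelial list (mean 113, 123 and 119 CPM). In the cartilage list Hapln1 had a mean of 22.9, 8.53 and 7.00 CPM in the same order. The other cartilage markers tested, Matn1 and Matn3, had log2 fold changes of 0.18 and 0.49 in CDSCs against Health, and neither passed. Of 17 markers tested, the endothelial gene Pecam1 and the blood cell gene Ptprc (CD45) were lower in CDSCs than in Health (11.8%, where 8.28% of all genes were lower) and 1 passed as higher, the neutrophil gene Ltf (5.88%, where 8.69% were higher). The study's methods used equal amounts of CD45+ and CD45- cells, so the Ptprc value is not read as a share of blood cells. Ltf also passed in BMT against Health (5.88%, where 0.994% were higher), but it had 0, 1 and 0 counts in Health, 16, 14 and 11 in BMT and 5, 4 and 5 in CDSCs, and it passed the filter only through BMT, so no change is read from it. Of the 3 markers tested in each of the bone-forming, cartilage and stromal lists, 0 passed in either comparison with Health. Their part in the collagen values was not tested.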

How the data were processed

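Poly(A) RNA of BM from 9 mice was sequenced in 9 libraries. The authors used FastQC and MultiQC for read quality, Trim Galore for trimming, HISAT2 for alignment and featureCounts for counting; the deposited values are whole counts, with totals of 8741155 to 10181289. The submitters' processing notes name GRCm38, and the annotation is not given in the sources used here. The authors converted the counts to the deposited TPM, used here for levels per length only. Both tables had their zeros at the same places, with 0 columns that belong to no labelled mouse.

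Groups came from the labels. Counts were tested with edgeR 4.0.16 in R 4.3.3 (filterByExpr, TMM, glmQLFit and glmQLFTest without the robust option, all 9 mice, two-sided, Benjamini-Hochberg adjustment). Nothing states separate cages or litters, so p-values measure the spread between these mice. The test was checked on simulated counts with planted changes and missed some of them, so a gene that did not pass may still differ. CPM used TMM library sizes. Named genes were collagens that passed in any comparison, the 2 most abundant of each class, Col1a1, Col2a1, Col3a1, Col4a1 and Col4a2, and pathway genes that passed. Col1a2 was compared on log2(CPM + 0.5). Gene positions came from GENCODE M21, which held all 43 names, and promoters from RefSeq (GRCm38.p6). Alternatives were DESeq2 1.42.0, library size without TMM, no filter, at least 10 counts in every mouse, edgeR's likelihood ratio test, the 6 mice compared, the replicate block and each mouse left out. The members, lists and comparisons were chosen with earlier results of these data known. Figures were drawn with matplotlib 3.10.9.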

Additional observations from a re-analysis of the deposited data

How the results depend on the processing

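In CDSCs against Health the number of collagen genes that passed stayed within 1.5 times of the 9 reported under every alternative, with 6 to 12 when 1 mouse was left out, where 1071 to 2640 of all genes passed against 2134 with every mouse. The 12, without CDSCs mouse 3, were 11 higher genes and 1 lower gene, Col17a1, and edgeR's likelihood ratio test likewise gave 11 higher and 1 lower, Col16a1. The 9 include Col12a1 and Col28a1, which entered the test only through CDSCs. Of the 7 others, Col11a2, Col19a1, Col27a1 and Col4a5 held in all 6 fits without 1 mouse. Col15a1 held in 5 of 6, Col9a3 in 2 and Col6a1 in 1. In BMT against Health the number of collagen genes that passed was 1 with DESeq2, 2 without the filter on low counts and 1 with edgeR's likelihood ratio test, and 0 otherwise, including every fit without 1 mouse. In CDSCs against BMT it was 6 with DESeq2, 9 without the filter, 6 with the likelihood ratio test, 1 with at least 10 counts in every mouse and 0 with only the 6 mice compared, and it ran from 0 (without BMT mouse 1) to 5 (without CDSCs mouse 3); the cause was not tested. Names with a mean under 10 counts numbered 17, against 13 under 10 in every mouse. The median log2 fold change of the collagen genes in BMT against Health moved to 0.16 without TMM. Values near 0 changed sign. In CDSCs against Health, Col4a2 went to 0.0135 with DESeq2, 0.0148 without the filter, 0.04999 without TMM, 0.0354 with at least 10 counts in every mouse and 0.0374 with only the 6 mice compared. In BMT against Health without TMM, Col12a1 went to 0.00073 and Col4a4 to 0.0259. With 1 mouse left out, values that changed sign ran in CDSCs against Health Col4a2 from -0.14 to 0.17, Col4a4 from -0.24 to 0.11. They ran in BMT against Health Col12a1 from -0.54 to 0.76, Col13a1 from -0.0393 to 0.0816, Col2a1 from -0.62 to 0.29, Col3a1 from -0.27 to 2.46, Col4a4 from -0.11 to 0.0168. They ran in CDSCs against BMT Col17a1 from -0.35 to 0.0581, Col4a4 from -0.18 to 0.17. For single genes, 597 alternatives kept side and direction, 22 passed newly, 56 no longer passed and 24 changed direction.

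Whether the labels' replicate numbers pair the mice was not settled. Same-numbered mice correlated from -0.34 to 0.22 in their deviations from the group means. Differently numbered mice were not compared, so these values have no reference. With the replicate block, 6 collagen genes were higher in CDSCs than in Health (1507 of all genes changed, against 2134 without the block), 0 differed in BMT against Health and 1 was higher in CDSCs than in BMT. Col6a1, Col9a3 and Col28a1 no longer passed against Health with the block. Of the 13 names under 10 counts in every mouse, 0 were tested, and no difference is read from them.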
